A study of Mus musculus with 6 samples.

Results

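The genes that build and load the MHC class I complex were compared between WT and *Cmah*-null mice in cochlear tissue. The set held 10 genes, which were *H2-K1*, *H2-D1*, *H2-T23*, *H2-M3*, *B2m*, *Tap1*, *Tap2*, *Tapbp*, *Nlrc5* and *Erap1*, of 18138 gene symbols on the array, and a probe was taken when its listed symbol equalled one of these names. By this rule 8 of the 10 genes had a probe, and they had 13 of the 25697 probes. No probe carried the symbol *H2-D1* or *Nlrc5*. Both groups were 12 months old and of the C57BL/6 strain (C57BL/6J in the study's methods), with 3 arrays each, and WT mice served as the control for mice in which *Cmah*, the gene for CMP-Neu5Ac hydroxylase, was disrupted by the tm1Ykoz allele. The comparison asked how gene expression differs in the aged inner ear that lacks this enzyme. The samples are described only as cochlear tissue, so fewer cells of a type and less RNA per cell cannot be told apart in any value below. Markers of skeletal muscle and brown fat were detected as well, and how much of such tissue each sample held is not given. The labels give the age, strain and genotype of each sample but no statement on pooling, and since they do not say that each array came from its own animal, p-values measure only the spread between these samples.

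MHC class I molecules carry short peptides from inside the cell to its surface, where CD8 T cells and NK cells read them. The heavy chain (*H2-K1*, *H2-D1* and, among the less variable forms, *H2-T23* and *H2-M3*) is held together with beta-2 microglobulin (*B2m*). Peptides cut by the proteasome enter the endoplasmic reticulum through the transporter made of Tap1 and Tap2, are trimmed there by Erap1, and are loaded with the help of tapasin (*Tapbp*). Nlrc5 is a transactivator that drives transcription of class I genes, and interferons raise it.

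No difference between genotypes was called in this set. Of the 13 probes, 0 had an adjusted p under 0.05 (limma with Benjamini-Hochberg adjustment over all probes), as did 0% of all probes on the array. At an unadjusted p under 0.05 the count was also 0 of 13, beside 8.56% of all probes, and at 1.5-fold with that p it was 0 of 13, beside 2.71%. The smallest unadjusted p in the set was 0.0602, for *Tap1*, with an adjusted p of 0.601. An ordinary linear model per probe also gave 0 of 13 at an unadjusted p under 0.05. The largest difference among the 10 probes that were detected on at least 3 arrays was a log2 difference of 0.34 and the smallest 0.041, each given as *Cmah*-null minus WT.

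Detection means a detection p below 0.05 on that array, and between 13873 and 15223 probes were detected per array. The groups were not uniform. *Cmah*-null replicate 3 stood apart from the other arrays, since its log2 values differed from theirs with an SD of 0.76 to 0.85 over the 12410 probes detected on the 6 arrays. The *Cmah*-null replicates 1 and 2 were the closest pair, with an SD of 0.14. Of these probes, 30.2% differed between those arrays by more than the 95% limits of the bead error, the lowest share of any pair. The bead error holds noise within an array only and cannot show whether these arrays come from different mice, so they were kept separate as the labels list them and were also averaged as an alternative. The *Cmah* probe itself (ILMN_2606825) was detected on 1 WT and 2 *Cmah*-null arrays, and where it lies relative to the disrupted part of the gene is not given in the sources used here, so it checks no label.

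The probes that the results turn on are shown first, because the array reads each gene through 50 bases. The first pair are the *B2m* probes, which share 49 bases (capitals) and so are not independent measurements. The other 3 are those of *H2-K1*, of *H2-T23* and of *Tap1*, the gene with the smallest p.
B2m ILMN_1216746: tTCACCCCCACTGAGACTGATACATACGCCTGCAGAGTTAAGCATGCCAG
B2m ILMN_2739999: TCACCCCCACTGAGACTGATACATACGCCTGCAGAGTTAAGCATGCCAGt
H2-K1 ILMN_2795520: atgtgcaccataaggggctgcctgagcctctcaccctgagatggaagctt
H2-T23 ILMN_2777471: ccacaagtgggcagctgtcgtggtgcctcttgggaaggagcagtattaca
Tap1 ILMN_1250409: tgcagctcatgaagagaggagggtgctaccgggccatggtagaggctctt
The array annotation places these probes from base 321 and base 322 of the *B2m* transcript on chromosome 2, and from base 842 of *H2-K1*, base 816 of *H2-T23* and base 2108 of *Tap1*, all on chromosome 17. In the ungapped comparison with all probes listed under other symbols, none of the 13 probes matched another gene's probe at 40 or more of its 50 bases. The closest were 35 bases for a *Tapbp* probe and 27 to 32 bases for the others. Transcripts of the other class I heavy chains, which resemble each other, were not compared with the probes.

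**Figure D1:**
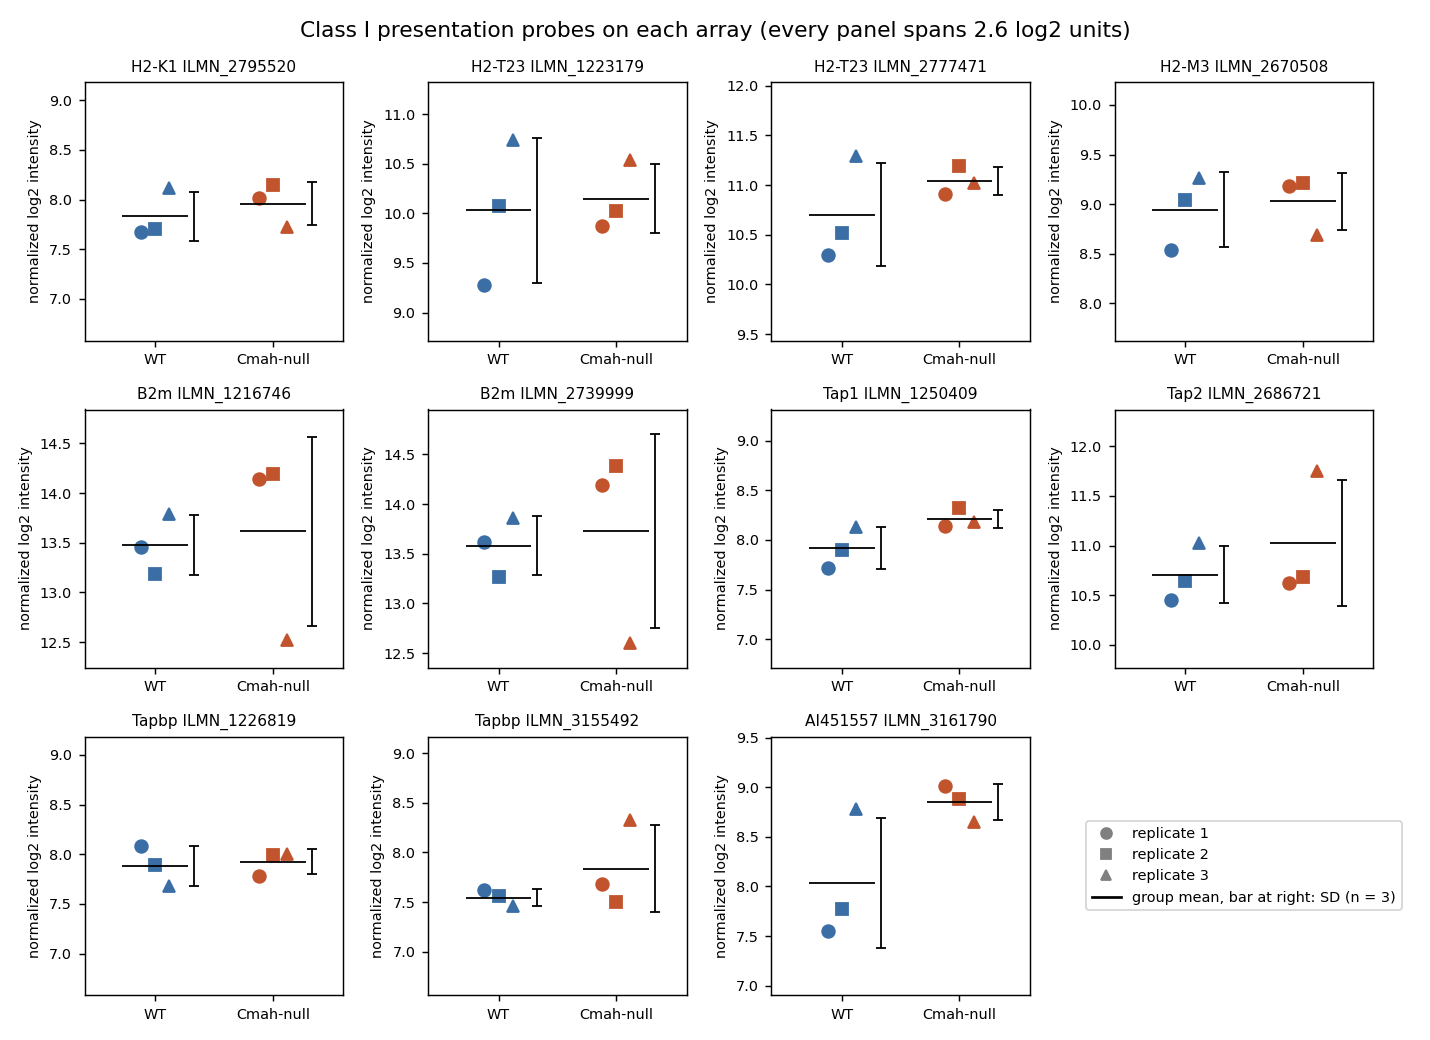
Normalized log2 intensity (vertical axis) of the 10 detected probes of the set and of the probe matched to *Nlrc5* (AI451557) in 3 WT and 3 *Cmah*-null samples. Points are arrays, horizontal lines are group means and bars are SD (n = 3); the groups overlap in every panel except that of *Tap1*.

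Among the heavy chains, *H2-K1*, the classical molecule that presents peptides to CD8 T cells, was measured close to background by probe ILMN_2795520. Its log2 intensity was 7.67, 7.70 and 8.11 in WT replicates 1 to 3 and 8.01, 8.15 and 7.72 in *Cmah*-null replicates 1 to 3. The groups overlapped, with *Cmah*-null replicate 3 close to the lower WT values. The probe was detected on all 6 arrays with a highest detection p of 0.0213. The log2 difference was 0.13 with a 95% interval of -0.29 to 0.55 (unadjusted p = 0.475 and adjusted p = 0.853 in limma). The annotation lists H-2K(d) among the synonyms of this entry, while C57BL/6J mice carry the b haplotype, and the match of the probe to that allele was not tested.

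*H2-T23* encodes Qa-1, the molecule that shows leader peptides of other heavy chains to the NK receptor CD94/NKG2A. Probe ILMN_2777471 gave log2 intensities of 10.296, 10.52 and 11.29 in WT and 10.91, 11.19 and 11.02 in *Cmah*-null mice. The 3 *Cmah*-null arrays lay close together and above WT replicates 1 and 2, and WT replicate 3 was the highest of all. The log2 difference was 0.34 with a 95% interval of -0.32 to 1.00 (adjusted p = 0.750 in limma). Without WT replicate 3 it was 0.63 (unadjusted p = 0.00563 in limma). With each other array left out the unadjusted p was 0.266 to 0.616. The second probe, ILMN_1223179, gave 9.28, 10.08 and 10.74 in WT and 9.87, 10.03 and 10.54 in *Cmah*-null mice, so the *Cmah*-null arrays all fell inside the WT range. Its log2 difference was 0.12 with a 95% interval of -0.85 to 1.09 (adjusted p = 0.950 in limma), and it turned to -0.26 without WT replicate 1. With both probes WT replicate 1 was the lowest and WT replicate 3 the highest WT array.

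*H2-M3* encodes a non-classical heavy chain that presents N-formylated peptides. Its probe ILMN_2670508 gave 8.53, 9.04 and 9.27 in WT and 9.18, 9.21 and 8.69 in *Cmah*-null mice. WT replicate 1 and *Cmah*-null replicate 3 were the low arrays, and the groups overlapped. The log2 difference was 0.082 with a 95% interval of -0.50 to 0.66 (adjusted p = 0.939 in limma), and it was -0.12 without WT replicate 1.

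*B2m*, the light chain shared by all class I molecules, had the widest spread of the set. Probe ILMN_1216746 gave 13.45, 13.18 and 13.79 in WT and 14.14, 14.19 and 12.52 in *Cmah*-null mice. *Cmah*-null replicates 1 and 2 lay above every WT array and *Cmah*-null replicate 3 below every WT array. The SD was 0.30 in WT and 0.95 in *Cmah*-null mice (n = 3 each), and the log2 difference of 0.14 had a 95% interval of -1.05 to 1.33 (adjusted p = 0.951 in limma). The overlapping probe ILMN_2739999 gave 13.62, 13.27 and 13.86 in WT and 14.19, 14.38 and 12.60 in *Cmah*-null mice, in the same order. Without *Cmah*-null replicate 3, the array below every WT array, the differences of both probes were 0.69 and 0.71 (unadjusted p = 0.0115 and 0.0113 in limma). That fit kept *Cmah*-null replicates 1 and 2, the closest pair of arrays (SD of 0.14), which cannot be shown to come from different mice. Its p-values rest in part on the small spread of that pair, and 3342 of all 25697 probes had an unadjusted p under 0.05 in it. Without *Cmah*-null replicate 2 the differences of both probes were -0.15 and -0.18. On each array the bead error of either probe was at most 4.86% of the signal, while the values of the first probe spanned 1.67 log2 units over the arrays. A further *B2m* probe, ILMN_2670561, whose sequence is 78% A and T, was detected on no array, with detection p from 0.574 to 0.811, and no difference is given for it. The study's PCR array used *B2m* among the genes for normalization.

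The transporter subunits came next. *Tap1* was the only gene of the set whose groups did not overlap. Its probe ILMN_1250409 gave log2 intensities of 7.72, 7.90 and 8.13 in WT and 8.14, 8.32 and 8.18 in *Cmah*-null mice. The lowest *Cmah*-null array and the highest WT array differed by less than 0.01 log2 units, so the separation was marginal. The log2 difference was 0.29 with a 95% interval of -0.017 to 0.60, which is 1.23-fold on the linear scale (unadjusted p = 0.0602 and adjusted p = 0.601 in limma). It stayed positive with each array left out, between 0.19 and 0.40, and with the background correction of neqc it was 0.61 (unadjusted p = 0.0545 in limma). One of 13 probes is 7.69%, beside 9.11% of all probes that were higher in *Cmah*-null mice without overlap, so the set held no more such probes than the array did. *Tap2*, the second subunit, gave 10.46, 10.65 and 11.02 in WT and 10.63, 10.68 and 11.75 in *Cmah*-null mice with probe ILMN_2686721. *Cmah*-null replicate 3 alone lay above the WT range. The log2 difference was 0.31 with a 95% interval of -0.52 to 1.15 (adjusted p = 0.815 in limma), and without that array it was -0.052.

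*Tapbp* encodes tapasin, which bridges the transporter and the empty heavy chain. Probe ILMN_1226819 gave 8.08, 7.89 and 7.68 in WT and 7.78, 7.99 and 8.01 in *Cmah*-null mice, all within 0.40 log2 units of each other. The log2 difference was 0.041 with a 95% interval of -0.28 to 0.36 (adjusted p = 0.946 in limma). The other probe, ILMN_3155492, was detected on 4 arrays and gave 7.62, 7.56 and 7.46 in WT and 7.68, 7.50 and 8.33 in *Cmah*-null mice. *Cmah*-null replicate 3 was the high array, the log2 difference was 0.29 with a 95% interval of -0.25 to 0.84 (adjusted p = 0.743 in limma), and without that array it was 0.047. This probe shares a run of 22 bases with a probe of another gene, and whether it reads *Tapbp* alone was not tested. *Erap1*, the peptidase that trims peptides to their final length, was not measured. Probe ILMN_1222158 was detected on no array and probe ILMN_2679591 only on WT replicate 2, with log2 intensities of 7.19 to 7.50 in WT and 7.22 to 7.25 in *Cmah*-null mice.

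**Figure D2:**
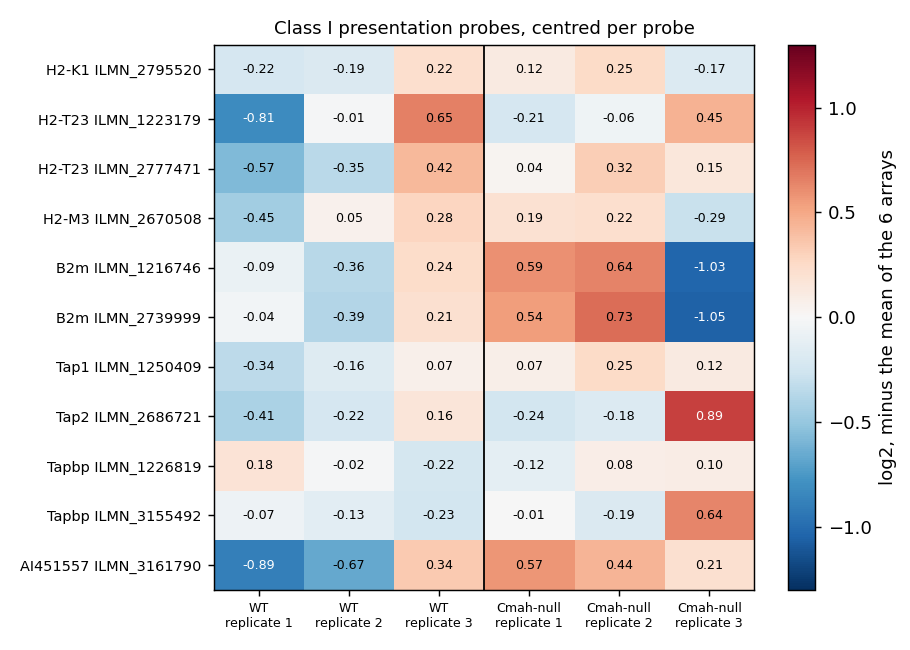
Log2 intensity of the same 11 probes with the mean of the 6 arrays subtracted (colour and printed number), by array (columns; black line between WT and *Cmah*-null). The 2 *B2m* probes are at -1.03 and -1.05 on *Cmah*-null replicate 3, where *Tap2* is at 0.89.

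The set did not move as one block over the arrays. *Cmah*-null replicate 3 was the lowest *Cmah*-null array for *B2m*, *H2-K1* and *H2-M3* and the highest for *Tap2*, for both *Tapbp* probes and for *H2-T23* probe ILMN_1223179. WT replicate 3 was the highest WT array for 8 of the 10 detected probes and WT replicate 1 the lowest for 6, while over all probes detected on at least 3 arrays these shares were 35.8% and 40.3%. *Cmah*-null replicate 3 was the lowest *Cmah*-null array for 4 of the 10 detected probes and the highest for 4, beside 45.4% and 48.0% of all probes detected on at least 3 arrays. Across the 6 arrays, as a description over points that share arrays and groups, Pearson's r was 0.85 between *H2-K1* and *H2-M3*, 0.79 between *H2-K1* and *B2m* (ILMN_1216746) and 0.68 between *H2-M3* and *B2m*. It was 0.92 between *Tap1* and *H2-T23* (ILMN_2777471). Between *B2m* and *Tap2* it was -0.68, and between *H2-M3* and *Tapbp* (ILMN_1226819) it was -0.78.

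RefSeq promoter sequences were available for 8 of the 10 genes, not for *Tap2* and *Nlrc5*. The windows below are shown because 4 of these genes, *B2m*, *H2-K1*, *H2-D1* and *H2-M3*, hold TGACG followed by ATTGG, with the first bases of the words 25 bases apart and on the strand of the gene. TGACG is the core of a site bound by CREB and ATF factors, and ATTGG is the CCAAT box read on the opposite strand, the letters bound by NF-Y. Class I promoters are known for such a module, through which Nlrc5 acts. Capitals mark these words where they occur on the strand of the gene, and *H2-M3* holds a further ATTGG at the start of its window.
B2m, GRCm38.p6 chr2:122147524-122147640, plus strand: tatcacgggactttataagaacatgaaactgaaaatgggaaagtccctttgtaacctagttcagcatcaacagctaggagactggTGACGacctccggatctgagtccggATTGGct
H2-K1, GRCm38.p6 chr17:34000357-34000473, minus strand: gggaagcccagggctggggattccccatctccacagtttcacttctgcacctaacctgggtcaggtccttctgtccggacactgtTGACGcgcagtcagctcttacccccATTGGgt
H2-D1, GRCm38.p6 chr17:35262908-35263024, plus strand: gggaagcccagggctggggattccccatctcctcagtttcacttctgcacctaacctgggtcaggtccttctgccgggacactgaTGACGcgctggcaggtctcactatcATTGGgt
H2-M3, GRCm38.p6 chr17:37270103-37270219, plus strand: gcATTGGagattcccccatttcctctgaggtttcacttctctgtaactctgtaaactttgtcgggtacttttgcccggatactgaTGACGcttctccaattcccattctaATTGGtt
Each window lies upstream of the annotated start site. The *B2m* window spans bases -163 to -47, that of *H2-D1* bases -186 to -70 and that of *H2-M3* bases -131 to -15, and the *H2-K1* window ends 10 or 24 bases before its alternative start sites. Of 32851 RefSeq promoter windows of 300 bases, searched on both strands, 31 (0.0944%) hold the spaced pair. TGACG alone is in 20.8% and ATTGG alone in 37.4%, *Tap1* has both without the spacing, and the words do not overlap each other in the windows shown. These words were chosen after the windows had been read, and a match is a description of letters, not of binding.

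*Nlrc5* itself, absent by symbol, was found by accession. Its RefSeq transcript is listed for 1 probe, ILMN_3161790, under the older name AI451557, and this match was made after its values had been seen. The probe gave log2 intensities of 7.55, 7.78 and 8.78 in WT and 9.02, 8.88 and 8.65 in *Cmah*-null mice. WT replicates 1 and 2 lay more than 0.8 log2 units below all other arrays, while WT replicate 3 lay inside the *Cmah*-null range, so the groups overlapped. The WT mean was 8.04 ± 0.65 and the *Cmah*-null mean 8.85 ± 0.18 (SD, n = 3 each). The log2 difference of 0.81 had a 95% interval of -0.0042 to 1.63, which is 1.76-fold (unadjusted p = 0.0509 and adjusted p = 0.584 in limma). Without WT replicate 3, the WT array inside the *Cmah*-null range, it was 1.18 (unadjusted p = 0.000637 in limma, where 8.63% of all probes were under 0.05). With each other array left out the unadjusted p was 0.055 to 0.145. The difference lay between 0.57 and 1.18 over all 6 fits with an array left out. It was 1.52 with neqc (unadjusted p = 0.0527). The unadjusted p was 0.0139 with median scaling, 0.0288 with a trended robust prior and 0.0446 with a filter on detection. Under these settings 13.6%, 7.93% and 9.0% of all probes had a p under 0.05. The p of this probe was 0.0609 with the bead block and 0.0892 with the replicate block. With the ordinary linear model it was 0.107, and with *Cmah*-null replicates 1 and 2 averaged 0.12. The RefSeq transcripts of *H2-D1* matched no probe.

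**Figure D3:**
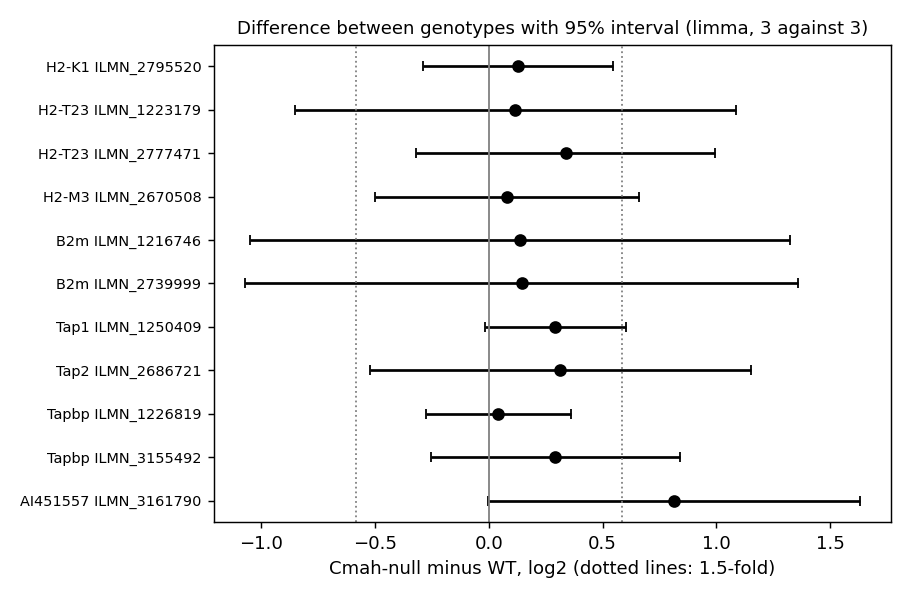
Log2 difference, *Cmah*-null minus WT (horizontal axis), of the 10 detected probes and of the AI451557 probe. Points are limma estimates and bars 95% intervals from 3 against 3 arrays; every interval includes 0, and dotted lines mark 1.5-fold.

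The 10 detected probes all had a difference above 0 by sign, from 0.041 to 0.34. Over all 13 probes 11 were above 0, and the median log2 difference was 0.13, beside 0.0020 over all 25697 probes. Of the probes detected on at least 3 arrays, 52.0% were above 0. The signs were not stable. With alternatives to the processing and with arrays left out, 17 of 153 differences of the 11 probes detected on any array changed sign, those of *B2m*, *H2-M3*, *H2-T23* (ILMN_1223179), *Tap2* and *Tapbp* (ILMN_1226819). The widest 95% interval, of the second *B2m* probe, reached a log2 difference of 1.36, or 2.57-fold. A difference of that size was not excluded at this number of arrays.

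**Figure D4:**
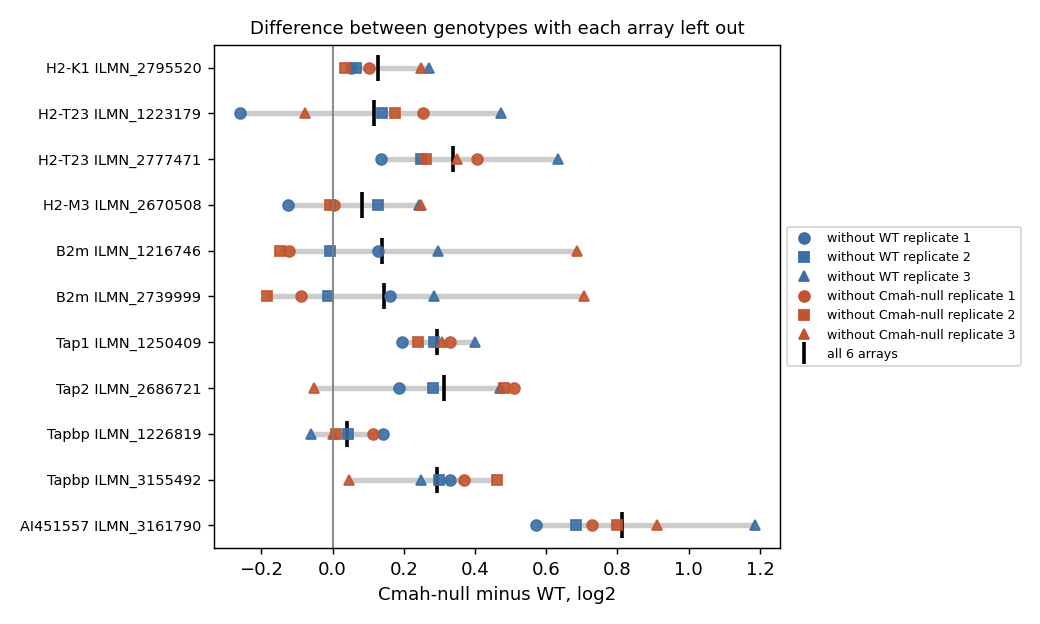
Log2 difference, *Cmah*-null minus WT (horizontal axis), of each probe with all 6 arrays (black tick) and with each array left out (points; blue for a WT array, orange for a *Cmah*-null array, shape for its replicate). For *B2m* the points run from -0.18 to 0.71, and *Cmah*-null replicate 3 gives the highest value.

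The arrays also fell into a set with a median of 32 to 34 beads per probe (WT replicate 1 and *Cmah*-null replicates 1 and 2) and a set with 38 or 39 (the others). Within the first set *B2m* (ILMN_1216746) differed by 0.71 and within the second by -0.97. *H2-M3* differed by 0.66 and -0.46, and *H2-K1* by 0.40 and -0.19. *Tap1* differed by 0.51 and 0.16, *Tap2* by 0.20 and 0.92, and the probe matched to *Nlrc5* by 1.40 and 0.37. Both *Tapbp* probes also changed direction, with -0.20 and 0.22 for ILMN_1226819 and -0.028 and 0.82 for ILMN_3155492, while both *H2-T23* probes kept it, with 0.76 and 0.11 for ILMN_2777471 and 0.68 and 0.13 for ILMN_1223179. Each of these differences has 1 array on one side, WT replicate 1 in the first set and *Cmah*-null replicate 3 in the second. With the bead set as a block, *Tap1* had a log2 difference of 0.33 (unadjusted p = 0.0493 in limma) and *Tap2* of 0.56 (unadjusted p = 0.0399), with no adjusted p of the set below 0.259. Under this block 17.7% of all probes had an unadjusted p under 0.05, so 2 of 13 was no excess.

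The other genes of the class I pathway were taken from 9 lists of 108 names, 88 of which were on the array and 50 of which had their brightest probe detected on at least 3 arrays. Of the 88, 0 had an adjusted p under 0.05 in limma, while at an unadjusted p under 0.05 the *Cmah*-null mean was higher for 3 and lower for 4, together 7.95% beside 8.56% of all probes. The median log2 difference of the 50 was 0.055, beside 0.016 over all probes detected on at least 3 arrays.

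In the proteasome branch, which cuts the peptides, the 6 genes of the immunoproteasome and its PA28 activator were all detected, 4 above and 2 below 0, with a median log2 difference of 0.14. *Psmb8* and *Psmb9* encode catalytic subunits and lie beside *Tap1* and *Tap2* in the MHC region. *Psmb9* gave 9.35, 10.03 and 10.38 in WT and 10.33, 10.45 and 9.89 in *Cmah*-null mice, a log2 difference of 0.30 (adjusted p = 0.797 in limma). *Psmb8* gave 7.64, 7.73 and 8.07 in WT and 8.14, 8.30 and 7.76 in *Cmah*-null mice, a log2 difference of 0.26 (adjusted p = 0.731 in limma). *Psme1*, the alpha subunit of PA28, had a log2 difference of 0.31 (adjusted p = 0.642 in limma). In all 3 genes *Cmah*-null replicate 3 was the lowest *Cmah*-null array, as for 45.4% of all detected probes.

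Among the factors of class I and class II promoters 12 of 14 genes were detected, 10 above and 2 below 0. *Irf9*, a factor of the type I interferon response, gave 8.995, 9.03 and 9.45 in WT and 10.295, 10.303 and 9.21 in *Cmah*-null mice, a log2 difference of 0.78 (adjusted p = 0.598 in limma). *Nfyb*, a subunit of NF-Y, differed by -0.21 (adjusted p = 0.643 in limma). *Irf9* was highest on *Cmah*-null replicates 1 and 2, with *Cmah*-null replicate 3 inside the WT range.

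The receptor side of interferon gamma showed 1 gene above and 4 below 0 among 5 detected, with a median log2 difference of -0.060. *Socs3*, an inhibitor of cytokine signalling, was at 8.86 to 9.12 in WT and 9.85 to 10.95 in *Cmah*-null mice, a log2 difference of 1.23 (unadjusted p = 0.00803 and adjusted p = 0.449 in limma). *Ifngr2*, a chain of the receptor, was at 10.31 to 11.36 in WT and 10.14 to 10.26 in *Cmah*-null mice, a log2 difference of -0.73 (adjusted p = 0.569 in limma). *Ifng* was detected on no array. Of the 3 genes of the interferon alpha receptor list, *Ifnar2* differed by 0.14 and *Tyk2* by 0.060, and *Ifnar1* was detected on no array.

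Of 21 other heavy chain genes on the array, 14 were detected on no array and 6 on at least 3, all 6 with a difference at or above 0 by sign and a median of 0.14. The smallest p of a detected one belonged to *H2-M2*, at 7.36, 7.52 and 8.69 in WT and 8.67, 8.67 and 7.85 in *Cmah*-null mice, a log2 difference of 0.54 (adjusted p = 0.748 in limma). *H2-M9*, *H2-Q1* and *H2-M10.4*, which had the smallest p values of the list, were detected on no array and are given no difference. Of the 6, *H2-T10* was detected on 1 WT and 3 *Cmah*-null arrays, so it passed the filter only through the group with its higher mean. *H2-M10.3* differed by 0.0003, and 52.0% of all probes detected on at least 3 arrays were above 0. The class I-like molecules had 2 genes above and 4 below 0. *Cd1d1*, which presents lipids to NKT cells, was at 11.02, 10.70 and 11.35 in WT and 10.43, 10.24 and 9.18 in *Cmah*-null mice, a log2 difference of -1.07 (unadjusted p = 0.0265 and adjusted p = 0.545 in limma). *Fcgrt*, the neonatal Fc receptor, which pairs with *B2m* too, differed by -0.39 (adjusted p = 0.545 in limma). In both genes every *Cmah*-null array lay below every WT array, as in 7.33% of all probes and in 0 of the 13 probes of the set.

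The loading chaperones had 3 genes above and 2 below 0, *Pdia4* with 0.28, *Tapbpl* with 0.066 and *Hspa5* with -0.22 (adjusted p from 0.741 to 0.905 in limma). Of the 3 detected peptidases, *Blmh* differed by -0.38 (unadjusted p = 0.0371 and adjusted p = 0.569), *Tpp2* by -0.40 (adjusted p = 0.593) and *Nrd1* by 0.23 (adjusted p = 0.673, all in limma). Among receptors that bind class I, 9 of 18 genes were detected on no array. *Pira4*, a paired receptor of myeloid cells, was at 7.41 to 7.52 in WT and 7.66 to 7.74 in *Cmah*-null mice, a log2 difference of 0.24 (adjusted p = 0.510 in limma), and *Cd8b1* differed by 0.31 (adjusted p = 0.615). Both lay near background. *Pira4* was detected on 1 WT and 3 *Cmah*-null arrays, so it passed the filter only through the group where it was higher. *Cd8b1* was detected on 2 WT and 3 *Cmah*-null arrays.

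**Figure D5:**
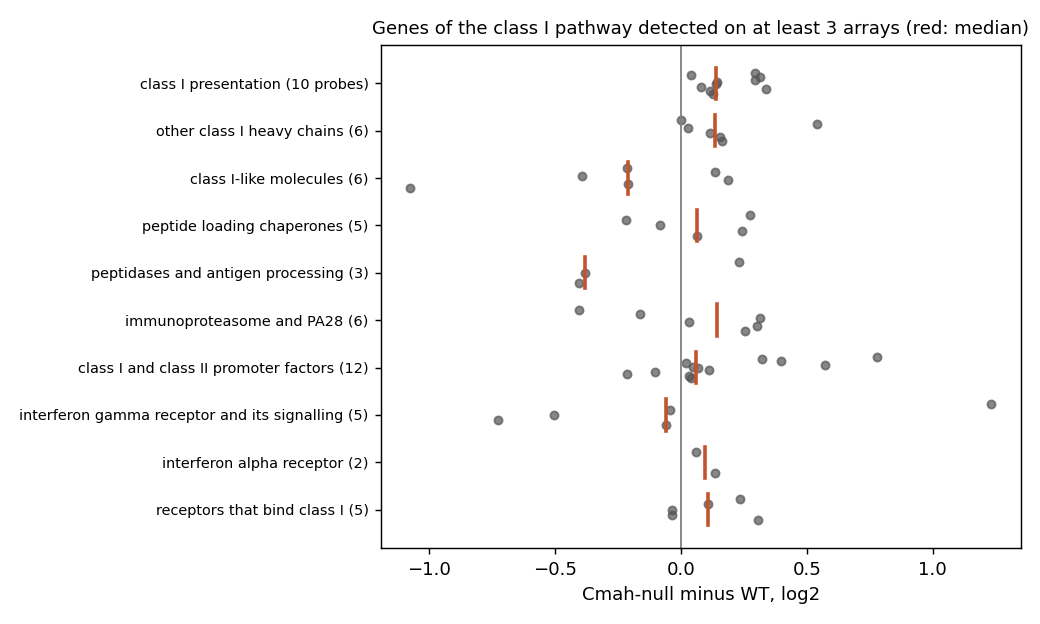
Log2 difference, *Cmah*-null minus WT (horizontal axis), of each detected gene in the 9 pathway lists and of the 10 detected probes of the set (top row). Points are genes at their brightest probe and red ticks are medians; the number of points is in parentheses, and the medians lie between -0.38 and 0.14.

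Markers of the cells that the tissue could hold were measured beside the set. Of 10 macrophage markers 9 were detected and 7 were above 0, and their summed linear intensity was 4804 to 6856 in WT and 5045 to 8523 in *Cmah*-null mice. *Cd68* and *Fcgr1* were higher without overlap, by 0.39 and 0.44 (unadjusted p = 0.0116 and 0.00891 in limma), while *Emr1* and *Mrc1* were below 0. Of 8 T cell markers 6 were detected, at a summed intensity of 1086 to 1319 in WT and 1372 to 1693 in *Cmah*-null mice, while *Cd4* and *Cd8a* were detected on no array. Of the 6, 5 were above 0, *Lck* by 0.32 without overlap (unadjusted p = 0.0396 in limma), and *Cd247* differed by -0.048. The T cell sums include background, since intensities were not background-corrected. *Cd3g* was detected on 1 WT and 2 *Cmah*-null arrays, and *Cd8b1* on 2 and 3. *Cd3e* was at 9.29 on *Cmah*-null replicate 3 and at 8.14 and 8.06 on replicates 1 and 2, while *Cd3d* was lowest on replicate 3. The 2 detected NK cell markers summed to 2219 to 5551 in WT and 2146 to 2753 in *Cmah*-null mice, with *Ncr1* detected on no array. *Prf1* weighs most in this sum and differed by -0.61 (adjusted p = 0.692 in limma), while *Nkg7* differed by 0.0002. The 1 detected B cell marker, *Cd79b*, was at 263.2 to 621.3 in WT and 206.6 to 287.8 in *Cmah*-null mice, and the 6 markers of neutrophils and marrow summed to 79395 to 107073 and 80252 to 94215. *Ltf* weighs most in the latter sum, at a log2 intensity of 15.92 to 15.99 over the arrays. Of these 6 markers 3 were above and 3 below 0. The 4 detected of 5 general leukocyte markers summed to 11750 to 19215 in WT and 21634 to 34791 in *Cmah*-null mice, with *Ptprc* detected on no array. The brightest, *Laptm5*, weighs most in this sum, at a log2 intensity of 13.01 to 13.69 in WT and 13.93 to 14.90 in *Cmah*-null mice, while *Coro1a*, *Cd52* and *Cd53* overlapped between the groups and *Cd53* differed by -0.13. The 6 endothelial markers summed to 6907 to 7915 in WT and 5187 to 5349 in *Cmah*-null mice, with 4 below and 2 above 0, and *Tek* and *Cldn5* at an unadjusted p under 0.05. The 5 brown fat markers summed to 47752 to 64426 in WT and 7866 to 27728 in *Cmah*-null mice, all 5 below 0. In limma 0 markers passed an adjusted p of 0.05, and 8.56% of all probes had an unadjusted p under 0.05. The sums of skeletal muscle markers were 106760 to 205333 in WT and 107101 to 139694 in *Cmah*-null mice. Of these 8 markers 7 were detected, all 7 below 0, with a median log2 difference of -0.51. In limma 0 of them had an unadjusted p under 0.05. *Acta1*, the brightest, differed by -0.14. Of the hair cell markers 3 of 6 were detected, *Otof* and *Myo7a* on 6 arrays and *Slc17a8* on 5. *Otof* differed by 0.55 with groups that overlapped (unadjusted p = 0.0314 and adjusted p = 0.554 in limma). *Myo7a* differed by 0.085 and *Slc17a8* by -0.047, while *Pou4f3*, *Slc26a5* and *Atoh1* were detected on no array. The part of these cells in the values of the class I genes was not tested.

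The genes whose pattern was most like that of the set were found by Pearson's r over the 6 arrays with the median of the 9 centred probes detected on every array, among 9900 genes detected on every array. That profile was -0.34, -0.19 and 0.22 in WT and 0.072, 0.25 and 0.099 in *Cmah*-null mice, lowest on WT replicate 1. The 5 closest were *Them5* (r = 0.98), *Myoc* (0.98), *Casc1* (0.98), *Capg* (0.97) and *Xbp1* (0.97). *Xbp1*, a transcription factor of the unfolded protein response, was at 13.53, 13.67 and 14.08 in WT and 14.08, 14.11 and 14.03 in *Cmah*-null mice, a log2 difference of 0.31 (adjusted p = 0.634 in limma). All 5 genes were low on WT replicates 1 and 2. WT replicate 3 lay above every *Cmah*-null array for *Them5* and *Casc1* and inside the *Cmah*-null range for *Myoc*, *Capg* and *Xbp1*. These r values are the highest of 9900 genes over 6 arrays, so their height comes in part from the selection.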

How the data were processed

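Cochlear RNA of 3 WT and 3 *Cmah*-null samples was hybridized to Illumina MouseRef-8 v2 arrays, 1 array each. Per the file headers, the deposited raw table holds the intensity of each probe (average bead signal, linear, not normalized), a standard error over its beads, how many beads were read, and a detection p-value from the negative controls. The authors deposited a second table with log2 values, which they made by quantile normalization, and these were analysed. Its columns name the second group "old" and were matched to the *Cmah*-null samples by elimination and number. Its 12 repeated signal and detection columns, and the authors' columns of fold change and LPE (local pooled error) test, were not used.

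All 25697 probes were fitted with limma 3.58.1 under R 4.3.3, by lmFit and then eBayes without covariates, two-sided, and p-values were adjusted over all of them (Benjamini-Hochberg). The same steps were run on simulated data with independent noise and with changes larger than any difference of the set. That run therefore does not show what the steps find at the sizes seen here. Intensities were not background-corrected, so differences of dim probes are compressed. The number of arrays limits the precision. Genes in lists were represented by their brightest probe. The genes named were every probe of the 10 genes, in each list those at 1.5-fold with an unadjusted p under 0.05 or otherwise up to 3 with the smallest p, and the 5 with the most similar profile; other names were chosen after their values were seen. One result that this rule would name is not reported here. The genes of the set and the lists were chosen with earlier results of these data known. Alternatives were neqc (offset 16), median scaling, a filter on detection (at least 3 arrays), the replicate number or the bead set as a block, each array left out, a trended robust prior, an ordinary linear model, and *Cmah*-null replicates 1 and 2 averaged. Promoter windows and accessions came from RefSeq tables of GRCm38.p6. Python 3.11.15 and matplotlib 3.10.9 made the figures.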

Additional observations from a re-analysis of the deposited data

How the results depend on the processing

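The count of probes of the set at an adjusted p under 0.05 in limma was 0 in every alternative, and the smallest adjusted p was 0.149, with median scaling. With neqc, the detection filter, the trended robust prior and the ordinary linear model, 0 probes reached an unadjusted p under 0.05 and the median log2 difference of the set was 0.13 or 0.14. Median scaling gave 3 such probes (*H2-T23* ILMN_2777471, *Tap1* and *Tap2*), 2 at 1.5-fold, 3 without overlap and a median of 0.38, where 13.6% of all probes had such a p. It also shifted the array-wide median, over probes detected on at least 3 arrays, from 0.016 to 0.22, and relative to that the median of the set was 0.15. The bead block gave 2, where 17.7% of all probes did. With 1 array left out, 0 to 2 probes had an unadjusted p under 0.05, 0 to 2 had 1.5-fold with it, 1 to 4 did not overlap, and the median was 0.036 to 0.27. The counts rose without *Cmah*-null replicate 3 (2, 2 and 4 probes, the first 2 being the overlapping *B2m* pair, where 3342 of all 25697 probes had such a p), without WT replicate 3 (2, 1 and 3, beside 8.63%) and, for the first and last, without WT replicate 1 (1 and 2), and the last was 2 without *Cmah*-null replicate 2. The single probe at an unadjusted p without WT replicate 1 was *Erap1* ILMN_2679591, which was detected on 1 array. Background correction by neqc left the median but widened dim probes, to 0.61 for *Tap1*, 0.67 for *Tapbp* ILMN_3155492, 0.30 for *H2-K1* and 1.52 for the probe matched to *Nlrc5*, none at an unadjusted p under 0.05.

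Signs turned as follows. *B2m* ILMN_1216746 and ILMN_2739999 were at -0.0064 and -0.012 without WT replicate 2, -0.12 and -0.090 without *Cmah*-null replicate 1, -0.15 and -0.18 without *Cmah*-null replicate 2, -0.13 and -0.15 with the bead block, and -0.14 and -0.14 with *Cmah*-null replicates 1 and 2 averaged, while without *Cmah*-null replicate 3 they were 0.69 and 0.71. *H2-M3* was at -0.12 without WT replicate 1, -0.0081 without *Cmah*-null replicate 2 and -0.0013 with those replicates averaged, and with 1 array left out it was at most 0.25. *H2-T23* ILMN_1223179 was at -0.26 without WT replicate 1 and -0.078 without *Cmah*-null replicate 3, *Tap2* at -0.052 without *Cmah*-null replicate 3, and *Tapbp* ILMN_1226819 at -0.060 without WT replicate 3, where the highest values with 1 array left out were 0.47, 0.51 and 0.14. The causes were not tested.

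Same-numbered samples deviated from their group means with r of 0.022, -0.17 and 0.013, so no pairing by number was seen. Deviations from means of 3 arrays cannot exclude a weak pairing. With the replicate block 0 probes had an unadjusted p under 0.05, the median stayed at 0.13, and *Tap1* had a p of 0.0724. Leaving out WT replicate 3 or *Cmah*-null replicate 3 leaves a group of 2, in the latter case the closest pair of arrays. Probes near background, *Erap1* and *H2-K1* among them, also limit what a fold can show.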
